A study of Mus musculus with 6 samples.

Results

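The comparison set the 2 libraries labelled Card9 KO and MI (myocardial infarction) against the 2 libraries labelled WT and Sham, 4 of the 6 RNA-seq libraries made from mouse heart in the study. Members were chosen by these labels alone, and all genes entered, with a gene that a library did not list counted as 0. All libraries came from male mice of 12 weeks on a C57BL/6 background. For the infarct, the left anterior descending coronary artery was tied off and the tissue below the ligature was taken 3 days later. Sham mice went through the operation without the ligature. The knockout was carried by every cell of the mouse, and wild-type littermates and C57BL/6 mice served as controls. Without a Card9 KO sham group among the libraries used here, the effects of genotype and of infarction cannot be told apart in this comparison. The 2 libraries labelled WT and MI are given only as values set beside it, and they were compared with the same sham libraries. The labels do not say that 2 libraries of a group came from separate animals or whether hearts were pooled, so p-values measure only the spread between these samples, which may be technical.

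CARD9 is an adaptor protein of myeloid cells that passes signals from fungal and damage-sensing receptors, such as the C-type lectins dectin-1 and mincle, through BCL10 and MALT1 to NF-kB. After an infarct, heart muscle dies, neutrophils and then macrophages move in, and fibroblasts proliferate and lay down the collagen of the scar. In the mouse these phases overlap in the first days, which is when the tissue was taken.

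Card9 itself was listed at 0.99 and 1.03 FPKM in the sham libraries, 3.39 and 5.08 in those of WT MI and 9.85 and 6.94 where the label reads Card9 KO MI. FPKM is a fragment count scaled to gene length and to the total of the library. Both libraries labelled knockout lay above all 4 wild-type libraries, which goes against the label. The gene (mm9 chr2:26207696-26216438, minus strand) was higher than in sham by 2.21 ± 0.23 on the log2(FPKM + 1) scale (fold change ± SE, limma adjusted p = 0.000215). Its difference from the WT MI libraries missed the threshold (0.85 ± 0.23, limma adjusted p = 0.112). Which exons the knockout removed is not given in the sources used here, and a value per gene does not show where in the gene the reads fell. The group is therefore called the KO-labelled libraries, and every direction below rests on that label. Lcn2, which encodes the neutrophil and macrophage protein lipocalin 2, stood at 1.9 and 3.17 in sham and 6.98 and 7.27 in the KO-labelled libraries, beside 269 and 204 in WT MI. It was higher than sham by 1.22 ± 0.20 (limma adjusted p = 0.00171) and lower than WT MI by a difference of -4.86 ± 0.20 (limma adjusted p = 0.000201).

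**Figure D1:**
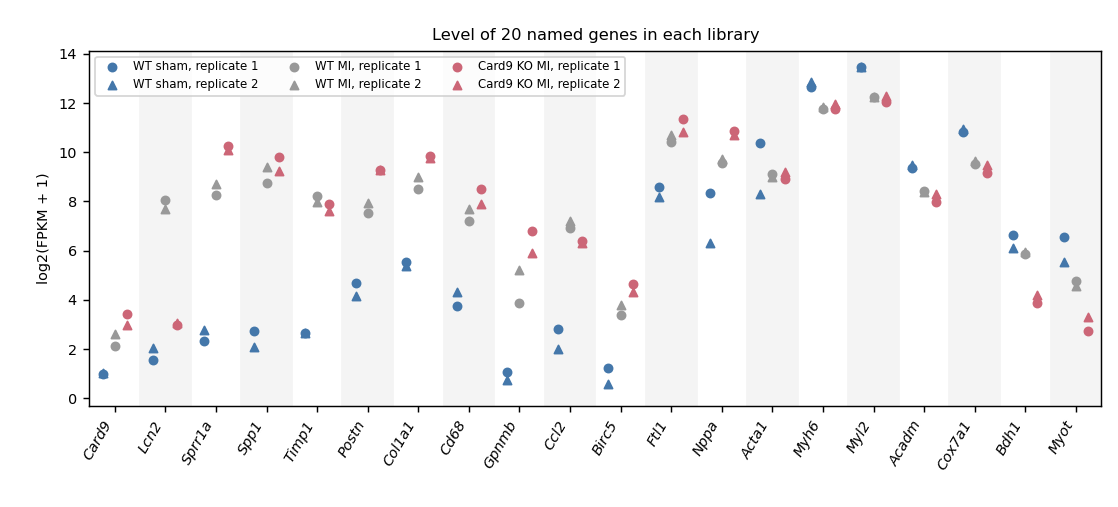
Level of 20 named genes as log2(FPKM + 1) in each of the 6 libraries, with circles for replicate 1, triangles for replicate 2 and a colour for each group. Card9 lies above sham in both KO-labelled libraries, Lcn2 lies near sham in them and far above it in WT MI, and Acta1 and Nppa differ widely between the 2 sham libraries.

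The depth of the files was estimated from the spacing of low FPKM values, at 3016102 to 3172326 fragments in the sham libraries and 4122522 to 4297206 in the KO-labelled libraries. For a 2 kb transcript, 3 fragments then amount to an FPKM of 0.349 to 0.497, counting error only. The 10 most abundant genes took 16.1% and 16.4% of all FPKM in the sham libraries and 8.99% and 10.1% in the KO-labelled libraries. Ventricular cardiomyocyte markers (Myh6, Tnnt2, Tnni3, Actc1, Myl2, Ryr2) were present in every library, and the summed level of the 6 was 39710 and 41320 FPKM in sham against 21290 and 24690. The 5 macrophage markers summed to 121 and 101 FPKM in sham and 885 and 631 in the KO-labelled libraries, and all 5 were called higher. The 5 fibroblast markers summed to 407 and 398 against 1309 and 1263, and most of the increase lay in Col1a1 (log2 fold change 4.35). Dcn was not called (-0.08), and the median over the 5 was 0.71, with 4 called higher. Of the neutrophil markers, Ly6g was listed in no library and counted as 0, and the sum of all 6 was 7.51 and 5.4 against 55.8 and 43.8. Liver markers stayed at or below 1.02 FPKM in sum, and Trac, Sln and Hbb-bt were listed in no library. Because the annotation is not given, a gene missing from it cannot be told apart from a gene without reads. In tissue RNA, fewer cells of a type and less RNA per cell cannot be told apart, and the part of these cell markers in the results below was not tested.

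Of 13120 genes tested, 4569 were called higher in the KO-labelled libraries (34.8%) and 1875 lower (14.3%), at a limma adjusted p below 0.05. A separate call, "at the sham level", asked that the 95% interval of the fold change lie within 2-fold of sham in either direction, for genes with a mean FPKM of at least 5. It was met by 5543 of 8713 genes (63.6%), and a gene can be called higher or lower and still be at the sham level when its shift is small. The values of the 2 groups did not overlap for 76.1% of the genes tested. These shares are the background for the counts of each gene list below. Because FPKM are relative to each library, the middle of all genes moved: the median log2 fold change over all genes was 0.24 as deposited, 0.09 after upper-quartile scaling and -0.10 after quantile normalization. Genes called higher made up 70.9% of all calls as deposited, 58.8% after upper-quartile scaling and 45.1% after quantile normalization. List medians are therefore also given relative to the median of all genes.

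The 10 genes furthest above sham were led by Sprr1a (mm9 chr3:92287877-92289816), a small proline-rich protein of stressed epithelium and muscle, at 4.03 and 5.88 FPKM in sham and 1218 and 1098 in the KO-labelled libraries. Its log2 fold change was 7.62 ± 0.18 (limma adjusted p = 8.69e-07), and the WT MI libraries lay between, at 306 and 413. Spp1 (mm9 chr5:104864137-104870069), which encodes the macrophage and matrix protein osteopontin, went from 5.6 and 3.27 to 884 and 603, a log2 fold change of 7.11 ± 0.28. H2ac24, a replication-dependent histone, was listed at 0 in both sham libraries and at 157 and 116 in the KO-labelled libraries. Histone genes of this family are near-identical, so its reads may belong to other copies. The others were Cthrc1 (5.80), Lgals3 (5.73), Tnc (5.53), Gpnmb (5.45), Timp1 (5.11), Arg1 (4.93) and Adam8 (4.92), given as log2 fold changes and all genes of matrix, macrophages or proteolysis.

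The 10 genes furthest below sham held 4 short RNAs, Mir1902, Mir5046, Mir208b and Snord82, whose FPKM rest on few fragments because the transcripts are so short. Mir208b was listed at 37.9 and 23.7 FPKM in sham and 0 and 5.8 in the KO-labelled libraries, which is about 9.25 and 5.51 fragments against 0 and 1.84. It lost its call without either sham library, without KO-labelled replicate 1, with a pseudocount of 0.1 and with no filter on low values. A poly(A) library reads the precursor and not the mature miRNA. The hairpin lies in an intron of Myh7, the slow myosin heavy chain, which was itself at 44 and 23.9 in sham and 25.8 and 40.9 FPKM in the KO-labelled libraries, with a 95% interval of -0.78 to 0.78. The mature sequences of the hairpin, from RefSeq on GRCm38.p6 (chr14, minus strand), are shown because this is the heart-specific miRNA among the genes furthest below sham, with capitals on the seed, bases 2 to 8.
mmu-miR-208b-5p: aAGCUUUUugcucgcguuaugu
mmu-miR-208b-3p: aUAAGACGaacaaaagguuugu

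The protein-coding genes among the lowest 10 included Myot, Scn4b, Bdh1 and Cpxm2. Myot (mm9 chr18:44493728-44515378), which encodes the Z-disc protein myotilin, was listed at 92.3 and 44.9 FPKM in sham and 5.68 and 8.87 in the KO-labelled libraries (log2 fold change -3.01 ± 0.32, limma adjusted p = 0.000229). The sham libraries differed widely from each other, yet neither overlapped the KO-labelled libraries. Scn4b, a beta subunit of the sodium channel, went from 21.9 and 12.7 to 2.01 and 2.54 (-2.44 ± 0.27). Bdh1 (mm9 chr16:31422366-31458987), the mitochondrial enzyme that turns beta-hydroxybutyrate into acetoacetate, went from 98.9 and 68.8 to 13.8 and 17.3 (-2.35 ± 0.18), while WT MI stood at 57.7 and 60.6. Cpxm2, a carboxypeptidase-like protein, changed by -2.25 ± 0.34. Gm7334 (-2.81) is a predicted gene, and Scgb1c1 (-2.52) encodes a secretoglobin.

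**Figure D2:**
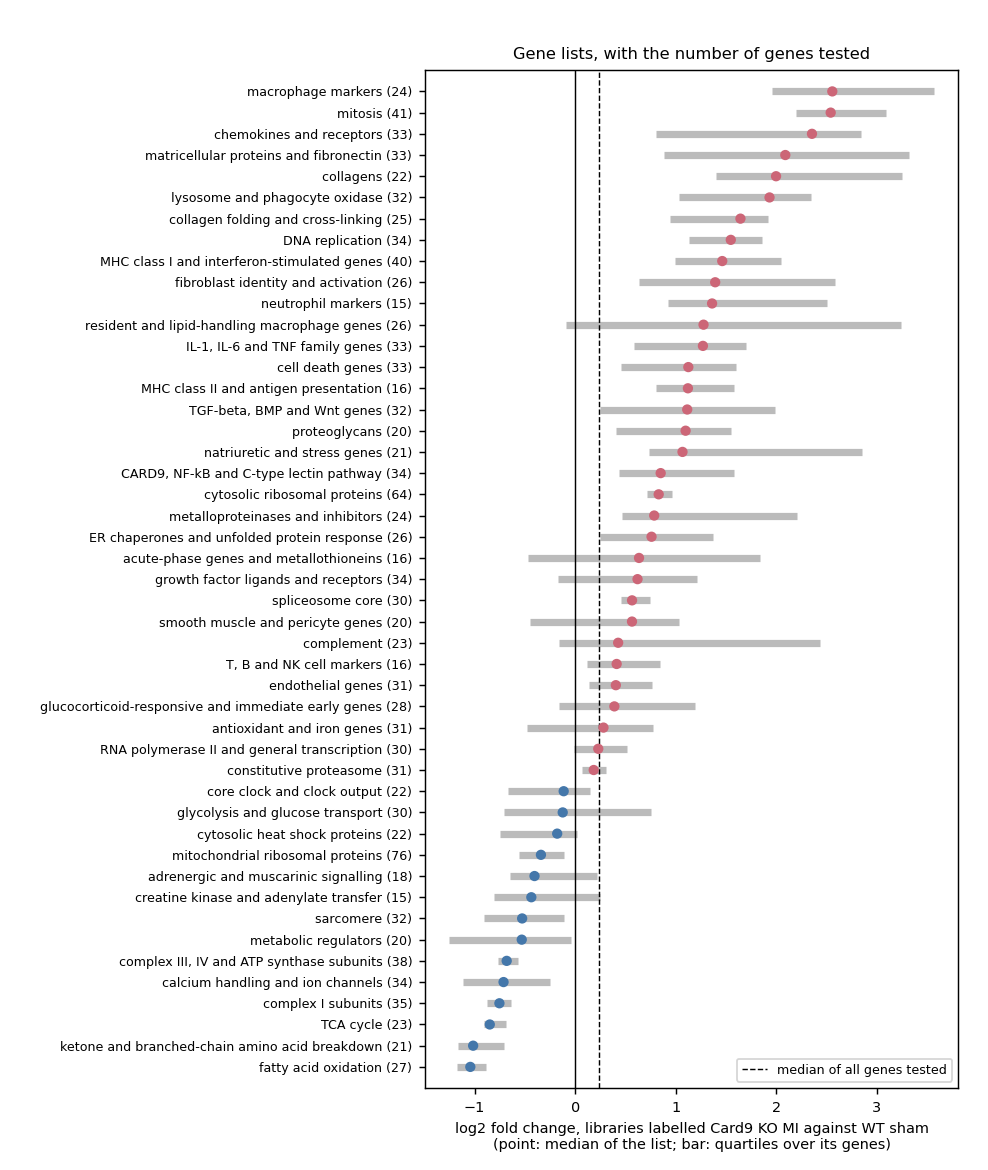
Median log2 fold change (KO-labelled against WT sham, on log2(FPKM + 1)) of each gene list with at least 10 genes tested, with bars for the quartiles over its genes and a dashed line at the median of all genes. Macrophage markers and mitosis lie furthest above 0, fatty acid oxidation and ketone and branched-chain amino acid breakdown furthest below.

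Most genes of energy metabolism were below sham. The heart draws most of its ATP from oxidising fatty acids, which are bound by FABP3, carried into mitochondria by CPT1B and CPT2 and shortened by the acyl-CoA dehydrogenases and the trifunctional enzyme of HADHA and HADHB. Of 27 genes of this route tested, 25 were called lower and 1 higher, with a median log2 fold change of -1.04, which is -1.28 relative to all genes. Their summed level was 14050.0 and 14380.0 FPKM in sham and 6120.0 and 7641 in the KO-labelled libraries, 2.07-fold lower. Fabp3, the most abundant, was listed at 5812 and 5519 in sham and 2349.5 and 3087 in the KO-labelled libraries (-1.07 ± 0.14, limma adjusted p = 0.00055), and at -0.20 it lost its call after quantile normalization. Acadm, the medium-chain acyl-CoA dehydrogenase, was listed at 648 and 709 and 252 and 311 (-1.27 ± 0.12). Neither gene overlapped between groups. Mlycd, which breaks down the malonyl-CoA that restrains fatty acid entry, had the largest decrease (51.1 and 49.9 to 17.4 and 19.4, -1.41 ± 0.14). Of the 27 genes, 3 were at the sham level, the long-chain dehydrogenase Acadl among them (-0.68 ± 0.10). Cpt1a, the isoform of liver and of non-muscle cells, was the member called higher (11.6 and 14.6 to 22.9 and 21.7, 0.73 ± 0.15).

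Breakdown of ketone bodies and branched-chain amino acids moved with it. 20 of 21 genes were called lower, and the median was -1.01. Oxct1, which commits ketone bodies to oxidation, was listed at 496 and 509 in sham and 228 and 267 in the KO-labelled libraries (-1.02 ± 0.10). Ivd and Bckdha, enzymes of leucine and branched-chain keto acid oxidation, changed by -1.32 ± 0.12 and -1.23 ± 0.10. Of the list, 6 genes were within 2-fold of sham, among them Dld, the dehydrogenase subunit shared with pyruvate oxidation (-0.71 ± 0.10).

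All 23 TCA cycle and pyruvate dehydrogenase genes were called lower, with log2 fold changes of -1.30 to -0.42, and 9 were nonetheless within 2-fold of sham. Idh2, the mitochondrial NADP-dependent isocitrate dehydrogenase, fell most, from 794 and 829.9 to 317 and 341 (-1.30 ± 0.09). Sdhd, a membrane anchor of succinate dehydrogenase, changed least (-0.42 ± 0.10).

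Respiratory chain subunits shifted by a smaller and more even amount. Of 35 nuclear complex I subunits, 33 were called lower, with quartiles of -0.87 and -0.64 around a median of -0.75, and 20 were at the sham level by the interval. Of 38 subunits of complexes III and IV, cytochrome c and ATP synthase, 36 were called lower and 27 were at the sham level. Among the complex IV subunits called lower were forms specific to striated muscle. Cox7a1 was listed at 1792 and 1960.5 in sham and 562 and 717 in the KO-labelled libraries (-1.56 ± 0.13). Cox6a2 went from 3964 and 4033 to 1499 and 1868 (-1.26 ± 0.12, or -0.64 after quantile normalization), and Cox8b from 1847 and 1901 to 784 and 904 (-1.15 ± 0.10). Their counterparts of other tissues were all at the sham level, though with different calls. Cox6a1 was called higher within 2-fold (184 and 164 to 256 and 267, 0.59 ± 0.09). Cox7a2 was called lower within 2-fold (interval -0.46 to -0.06), a call lost in 8 of 17 alternatives, and Cox8a was not called (0.02 to 0.44).

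High-energy phosphate transfer, which carries energy from mitochondria to the myofibrils, also gave calls in both directions. Muscle creatine kinase Ckm went from 1834 and 1865 to 722 and 782 (-1.30 ± 0.09), and its mitochondrial partner Ckmt2 from 1610.0 and 1660.0 to 718 and 801 (-1.11 ± 0.10). Brain-type Ckb was higher (30.8 and 32.6 to 73 and 61.3, 1.05 ± 0.11). The ADP/ATP carrier of muscle, Slc25a4, went from 3670.3 and 3595 to 1749 and 2016 (-0.95 ± 0.10, or -0.29 and not called after quantile normalization), while the carrier Slc25a5 of other tissues was at the sham level (199 and 167 to 204 and 206). Of the list, 8 of 15 genes were called lower and 3 higher.

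Transcription regulators of this metabolism were lower in part. Of 20 tested, 12 were called lower and 2 higher (1 higher without KO-labelled replicate 1 or after quantile normalization). Ppara, the nuclear receptor that drives fatty acid oxidation genes, was listed at 19.7 and 21.8 in sham and 5.72 and 8.05 in the KO-labelled libraries (-1.48 ± 0.17, limma adjusted p = 0.000287). Perm1, a muscle partner of PGC-1 and ERR, went from 171 and 166 to 44.2 and 61.1 (-1.68 ± 0.15), and the coactivator Ppargc1a from 24.9 and 26.2 to 9.7 and 13 (-1.12 ± 0.15). Esrra was called lower within 2-fold (-0.49 ± 0.11), and Ppard (interval -0.18 to 0.40) and Med1 (-0.39 to 0.20) were at the sham level and not called, except that Med1 was called lower after quantile normalization (-0.38). Hif1a, the oxygen-responsive subunit of HIF-1, was higher (23.3 and 21.5 to 55.6 and 54.2, 1.26 ± 0.10).

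Glycolysis genes went in both directions. Of 30 genes, 10 were called higher and 11 lower, and the median was -0.12. Those called lower included some muscle and heart forms, Pfkm (354 and 370.0 to 157 and 194, -1.05 ± 0.11), Eno3 (-0.95 ± 0.10), Pgam2 (-0.94 ± 0.12), Ldhb (-1.30 ± 0.09) and the insulin-responsive transporter Slc2a4 (-1.31 ± 0.14). Those called higher included forms found in other or proliferating cells, Eno1 (105 and 99.6 to 309 and 288, 1.54 ± 0.10), Pgam1 (1.33 ± 0.12), Pfkp (1.27 ± 0.16), Slc2a1 (1.48 ± 0.19) and the lactate exporter Slc16a3 (2.11 and 0.55 to 24.3 and 21.1, 3.43 ± 0.31). Gapdh, the abundant enzyme often used as a reference gene, stayed at the sham level, with 5456 and 4979 in sham and 4384 and 4572 in the KO-labelled libraries (interval -0.45 to 0.01), but its sign depended on the scaling (-0.39 to 0.58).

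Contractile genes gave calls in both directions, more of them lower. Of 32 sarcomere genes, 21 were called lower and 4 higher (16 and 7 after quantile normalization), and 15 of 31 were at the sham level. Myl2, the ventricular regulatory light chain and the most abundant member, was listed at 11442 and 11401 in sham and 4222 and 4939 in the KO-labelled libraries (-1.32 ± 0.11, limma adjusted p = 8.57e-05). Myh6, the fast cardiac myosin heavy chain, went from 6475 and 7384 to 3461 and 3934 (-0.91 ± 0.12), and Tnni3, cardiac troponin I, from 4710.0 and 5189 to 2080.4 and 2429.7 (-1.14 ± 0.11). These 3 did not overlap between groups, and they were still called lower after quantile normalization, though by less (-0.51, -0.31 and -0.33). Other thin filament genes sat closer to sham, with Actc1 at 10230.0 and 9931 and 6905 and 8531, Tpm1 at 7516 and 7600.5 and 5967 and 6283 and Tnnt2 at 6703 and 7245 and 4543 and 4764, all within 2-fold. Their log2 fold changes were -0.39, -0.30 and -0.58 as deposited but 0.49, 0.42 and 0.09 after quantile normalization, so no direction is given for them, although they are among the 21 counted lower as deposited. Des, the intermediate filament protein desmin, was called higher (1406 and 1239.6 to 1888 and 1972, 0.55 ± 0.10), and Tpm2, the beta-tropomyosin of smooth and slow muscle, was also higher (17.3 and 9.74 to 54.1 and 40.2, 1.77 ± 0.24). The repair and Z-disc scaffolds Flnc and Xirp1 were at the sham level, at 82.7 and 70.4 against 79 and 88.6 and 78.8 and 71.8 against 65.4 and 84.6, with WT MI at 161 and 138 and 128 and 104. For Flnc the KO-labelled libraries were below WT MI (-0.82 ± 0.12, limma adjusted p = 0.0337), a call lost without any 1 of the infarct libraries (adjusted p up to 0.226 over the alternatives), and for Xirp1 the difference missed the threshold (adjusted p = 0.0915).

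Genes of calcium cycling and the action potential followed the same direction. 22 of 34 were called lower and 3 higher (1 without KO-labelled replicate 1 or without either sham library), with a median of -0.71. Atp2a2, the calcium pump SERCA2 of the sarcoplasmic reticulum, was listed at 3669.6 and 3979 in sham and 1502 and 1865 in the KO-labelled libraries (-1.19 ± 0.14, or -0.54 after quantile normalization), and its inhibitor Pln at 2898 and 3089 and 1249 and 1510.0 (-1.12 ± 0.11). Hrc, a calcium-binding protein of the same store, went from 601 and 691 to 179 and 219.6 (-1.70 ± 0.12). Potassium channel genes Kcnip2 (-1.598 ± 0.23), Kcnj3 (-1.36 ± 0.19) and Kcnd2 (-1.13 ± 0.19) were lower. Other genes of the list were not: the potassium channel gene Kcnq1 stood at 20.3 and 21.8 in sham and 17 and 20.6 in the KO-labelled libraries, the exchanger Slc8a1 at 27.4 and 31.4 and 29.8 and 33.5, and the gap junction gene Gja1 at 226 and 233 and 202 and 219, all at the sham level. Gja1 was called lower under each of the other scalings (down to -0.30) and Kcnq1 after quantile normalization (-0.41). WT MI had Kcnq1 at 32.8 and 30.1, and the KO-labelled libraries were lower than these (limma adjusted p = 0.0477). This difference was close to the threshold and lost its call in 12 of 16 alternatives, among them leaving out any 1 of the 6 libraries and upper-quartile scaling (adjusted p up to 0.278).

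Adrenergic signalling was mixed. Of 18 genes, 9 were called lower and 3 higher, and the count of lower genes went to 3 without KO-labelled replicate 1 and 5 without sham replicate 2. Adra1a, the alpha-1A receptor, went from 8.07 and 7.94 to 1.9 and 3.09 (-1.39 ± 0.24). Adrb1, the main cardiac beta receptor, was called lower (interval -0.94 to -0.21), a call lost in 2 of 17 alternatives. The G protein gene Gnas was at the sham level (757 and 765 to 786 and 794), and Gnai2, an inhibitory subunit abundant in leukocytes, was higher (164 and 153 to 379.7 and 313, 1.12 ± 0.11).

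Stress genes of the muscle were mostly above sham, with sham libraries that differed from each other. Of 21 genes, 17 were called higher and 1 lower, and 11 were called higher without KO-labelled replicate 1, 11 without KO-labelled replicate 2 and 12 without sham replicate 2. Nppa, atrial natriuretic peptide, was listed at 326 and 78.2 in the sham libraries and 1841 and 1661 in the KO-labelled libraries (3.44 ± 0.53, limma adjusted p = 0.00134), and the groups did not overlap. The value was 4.46 without sham replicate 1 and 2.42 without sham replicate 2. Nppb, the B-type peptide, was at 635 and 255 and 576 and 609 and was not called (interval -0.27 to 1.38), but was called higher at 1.21 without sham replicate 1. Acta1, skeletal actin, was at 1312 and 319 in the 2 sham libraries, and the KO-labelled libraries lay between them at 474 and 594. Its sign turned with the sham library kept, at 0.73 without sham replicate 1 and -1.31 without sham replicate 2. Hmox1, the heme-degrading enzyme, went from 9.33 and 8.92 to 344 and 223 (4.78 ± 0.19), Timp1 from 5.36 and 5.24 to 239 and 197 (5.11 ± 0.13) and Ccn2, connective tissue growth factor, from 43 and 35 to 292 and 282 (2.86 ± 0.13). Clu, the extracellular chaperone clusterin, reached 1786 and 1699 from 659 and 525 (1.56 ± 0.14).

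Matrix genes were above sham. Fibrillar collagens make the scar, COL4 and COL15 lie in basement membranes, and COL5, COL12 and COL14 set fibril size and spacing. Of 22 collagen genes, 21 were called higher and none lower, none of 18 was at the sham level, and the median was 2.00, or 1.76 relative to all genes. Col1a1 (mm9 chr11:94797538-94814356) was listed at 45.4 and 41 in sham and 932 and 870.3 in the KO-labelled libraries (4.35 ± 0.16, limma adjusted p = 5.65e-06). Col3a1 went from 48.2 and 44.7 to 716 and 662 (3.86 ± 0.13), and Col5a2 from 7.6 and 7.34 to 101 and 90.3 (3.51 ± 0.13). Each KO-labelled library was far above each sham library, and the KO-labelled pair were close to each other. Basement membrane Col4a1 and Col4a2 changed less (1.56 ± 0.12 and 1.35 ± 0.10), and Col4a3 alone was not called. The sum over the list was 531 and 479 FPKM in sham and 3611 and 3386 in the KO-labelled libraries, 6.93-fold higher. The median against sham was 1.33 in WT MI.

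Enzymes that fold and cross-link collagen were higher in the same libraries, 21 of 25, with a median of 1.64. Lox, lysyl oxidase, went from 1.83 and 2.09 to 79.6 and 68.2 (4.66 ± 0.12), P4ha3, a prolyl hydroxylase, from 0.14 and 0.15 to 14.9 and 15.4 (3.82 ± 0.27), and the collagen chaperone Serpinh1 from 147 and 128 to 505 and 497 (1.86 ± 0.12). P4ha2 (interval -0.55 to -0.01) and P3h4 (-0.19 to 0.57) were at the sham level and not called, but P4ha2 was called lower under each of the other scalings (down to -0.52).

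Matricellular proteins, which tune cell adhesion without bearing load, included 3 of the 10 genes furthest above sham, Spp1, Cthrc1 and Tnc. 28 of 33 were called higher and 1 lower, with a median of 2.09. Postn, periostin of activated fibroblasts, was listed at 24.6 and 16.9 in sham and 626 and 627 in the KO-labelled libraries (4.87 ± 0.18). Tnc, tenascin C, went from 1.14 and 0.87 to 96.8 and 86.6 (5.53 ± 0.12), Cthrc1 from 0.55 and 0.29 to 81.7 and 74.2 (5.80 ± 0.19) and Fn1, fibronectin, from 12 and 13.2 to 361 and 283 (4.56 ± 0.13). The member called lower was Fbln1, fibulin 1 (30.4 and 37.4 to 19.7 and 20.8, -0.71 ± 0.15). Smoc2, Ltbp1 and Sparcl1 were at the sham level and not called, with Sparcl1 at 112 and 117 and 131 and 131.

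Proteoglycans were higher in 15 of 20 cases and lower in 1 (2 after quantile normalization). Bgn, biglycan, went from 224 and 167 to 882 and 875 (2.18 ± 0.14), whereas Dcn, decorin, its close relative in resting fibroblasts, was at the sham level with 325 and 318 and 297 and 309.5 (interval -0.38 to 0.21). Prelp was also at the sham level (interval -0.72 to 0.10), though called lower after quantile normalization (-0.51). The member called lower was Gpc1 (158 and 139 to 69 and 84.4, -0.95 ± 0.13).

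Of 24 metalloproteinase and inhibitor genes, 15 were called higher and 2 lower. Mmp14, the membrane-bound collagenase, went from 11.8 and 9.87 to 113 and 92.6 (3.13 ± 0.16), Mmp12, the macrophage elastase, from 0.26 and 0.18 to 24 and 13.4 (3.96 ± 0.27), and Adam8 from 0.41 and 0.65 to 52.5 and 38.9 (4.92 ± 0.17). Mmp9, the gelatinase of neutrophils and macrophages, was low, at 0.69 and 0.51 in sham and 3.26 and 2.94 in the KO-labelled libraries (1.36 ± 0.35), beside 24.9 and 10.2 in WT MI. It lost its call without sham replicate 2, without KO-labelled replicate 1, with a pseudocount of 5 and after quantile normalization (limma adjusted p up to 0.133). Among inhibitors Timp1 was higher as above, Timp2 was higher by 0.79 ± 0.13, Timp3 stayed at the sham level (34.3 and 37.3 to 36.1 and 39) and Timp4 was lower (7.65 and 9.63 to 3.97 and 4.31, -0.90 ± 0.19).

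Fibroblast genes covered those of activation and those of the resting cell. Of 26 genes 21 were called higher and 2 lower (16 and 4 after quantile normalization), and 1 was called lower without either sham library or without KO-labelled replicate 1. The contractile genes Acta2 (34.8 and 54.2 to 252 and 239, 2.47 ± 0.19) and Tagln (14 and 13.4 to 125 and 106, 2.98 ± 0.13) were higher. Pdgfra, a receptor on most cardiac fibroblasts, was called higher within 2-fold of sham (interval 0.12 to 0.70), a call lost in 9 of 17 alternatives. Dpt was also called higher within 2-fold (0.63 ± 0.09). Pi16, a marker of a resting adventitial state, was at the sham level (39.4 and 32.3 to 26.6 and 34.1), though called lower after quantile normalization (-0.43). Gsn, the actin-severing protein gelsolin, was lower (412 and 434 to 166 and 185, -1.26 ± 0.09).

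Macrophage genes had the highest median of the lists, beside mitosis. Of 24 marker genes, 22 were called higher, none lower and none of 22 was at the sham level, with a median of 2.56 (2.32 relative to all genes). Cd68 (mm9 chr11:69477715-69479655), a lysosomal glycoprotein of macrophages, was listed at 12.5 and 19 in sham and 362 and 235 in the KO-labelled libraries (4.16 ± 0.27, limma adjusted p = 2.84e-05). Ctss, the endosomal protease cathepsin S, went from 21.8 and 16.5 to 431 and 301 (4.18 ± 0.19). Ccr2, the receptor that draws monocytes from blood, went from 0.85 and 0.91 to 27.5 and 18.7 (3.66 ± 0.21), and Csf1r, the growth factor receptor of the lineage, from 19.2 and 15.4 to 67 and 54.7 (1.76 ± 0.14). KO-labelled replicate 1 was the higher of its pair for Cd68, Ctss, Ccr2 and Csf1r. Cd163, a scavenger receptor of resident macrophages, was not called (4.57 and 4.8 to 3.37 and 3.1, interval -1.01 to 0.16) except after quantile normalization (-0.84, called lower).

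Of 26 genes of resident and of lipid-handling macrophages, taken as a single list, 18 were called higher and 4 lower, with a median of 1.28. Lgals3 (3.24 and 2.17 to 226 and 166, 5.73 ± 0.22), Gpnmb (1.07 and 0.69 to 111 and 58.2, 5.45 ± 0.44), Trem2 (2.36 and 1.84 to 66.4 and 44.1, 4.16 ± 0.22) and Fabp5 (2.64 ± 0.29), which mark phagocytes that take up lipid and debris, were higher. Lyve1, found on resident cardiac macrophages and lymphatic endothelium, was lower (12.2 and 11.7 to 4.7 and 6.84, -0.95 ± 0.18), and Mgl2 was lower too (-0.66 ± 0.15), as were the lipid genes Lpl (-1.04 ± 0.11) and Cd36 (-0.95 ± 0.11), which heart muscle and capillaries express as well. Timd4 (1.45 and 1.36 to 1.6 and 0.78) and Fcna (3.15 and 2.53 to 4.99 and 1.86) were low in all 4 libraries and not called. Cbr2, also of resident cells, was higher by 0.89 ± 0.11. Arg1, arginase of wound macrophages, went from 0.64 and 0.45 to 47.4 and 44.3 (4.93 ± 0.12), and Chil3 from 0.2 and 0 to 13.7 and 12.1 (3.66 ± 0.21). The WT MI libraries stood at 90.3 and 86.3 for Arg1 and 86.5 and 57.2 for Chil3.

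Neutrophil genes were above sham at low levels. 13 of 15 were called higher, and 8 without sham replicate 2, without KO-labelled replicate 1 or after quantile normalization. S100a8 and S100a9, the calprotectin subunits, went from 1.75 and 0.91 to 14.1 and 10.02 (2.49 ± 0.42) and from 2.06 and 0.72 to 21.2 and 14.7 (3.03 ± 0.42), beside 68.9 and 25.3 and 94 and 39.2 in WT MI. Granule genes Ltf and Ngp were listed at 0 in all 4 libraries, and Mpo was at 0.09 and 0 in the KO-labelled libraries. The median against sham was 1.36 here and 2.58 in WT MI.

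Lymphocyte genes were close to the limit of detection. Of 16 T, B and NK cell genes that passed the filter on low values, 3 were called higher (Cd8b1, Cd79b and Lck), and 1 without sham replicate 2 or KO-labelled replicate 2. The highest value in the 4 libraries was that of Cd247, at 5.86 and 2.3 FPKM in the KO-labelled libraries. The list median of 0.41 became -0.00 after quantile normalization.

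Antigen presentation by MHC class II was higher. 12 of 16 genes were called higher and none lower, with a median of 1.12. Cd74, the invariant chain, was listed at 223 and 164 in sham and 413 and 308 in the KO-labelled libraries (0.90 ± 0.18), and H2-Ab1 at 56.6 and 40.3 and 123 and 91.4 (1.14 ± 0.19). Itgax, the integrin CD11c, went from 0.53 and 0.16 to 8.56 and 4.95 (2.50 ± 0.27). WT MI stood at 183 and 179 for Cd74 and 49.8 and 55.3 for H2-Ab1. Zbtb46 and Clec9a, genes of conventional dendritic cells, were not called.

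Interferon-stimulated genes were higher in both KO-labelled libraries, but by very different amounts. These genes are switched on by type I and type II interferon through transcription factors of the STAT and IRF families and encode antiviral proteins. Of 40 genes of this list and of MHC class I, 36 were called higher and none lower, with a median of 1.46. Isg15, a ubiquitin-like protein, was listed at 8.07 and 4.34 in sham, 20.5 and 73.3 in the KO-labelled libraries and 13.6 and 17.3 in WT MI (2.52 ± 0.52, limma adjusted p = 0.0051). Ifit3 went from 12.6 and 7.27 to 26.6 and 74.5 (2.11 ± 0.45), Irf7 from 11.2 and 6.69 to 32.9 and 73.1 (2.37 ± 0.36) and Oasl2 from 5.51 and 5.96 to 24.5 and 68.6 (2.65 ± 0.39). In each of these genes replicate 2 stood well above replicate 1, and both stood above sham. Without KO-labelled replicate 2 the log2 fold changes of Isg15, Ifit3 and Oasl2 were 1.63, 1.38 and 1.92, and without replicate 1 they were 3.42, 2.83 and 3.37. The count called higher was 27 without KO-labelled replicate 2 (median 1.02) and 23 without sham replicate 2, and the median was 1.94 without KO-labelled replicate 1. Where a group was left with 1 library, that library was assumed to vary like the other groups. After quantile normalization 25 were called higher. The antigen-presenting members did not show this gap, with B2m at 788 and 605 in sham and 1082 and 1028 in the KO-labelled libraries, within 2-fold, and H2-D1 at 140.3 and 119.8 and 263 and 210.5 (0.86 ± 0.13). H2-K1 was at the sham level (151 and 105 to 169 and 160.2) and called higher without sham replicate 1 (0.65). Class I heavy chain genes are close in sequence, so reads may be divided between them.

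**Figure D3:**
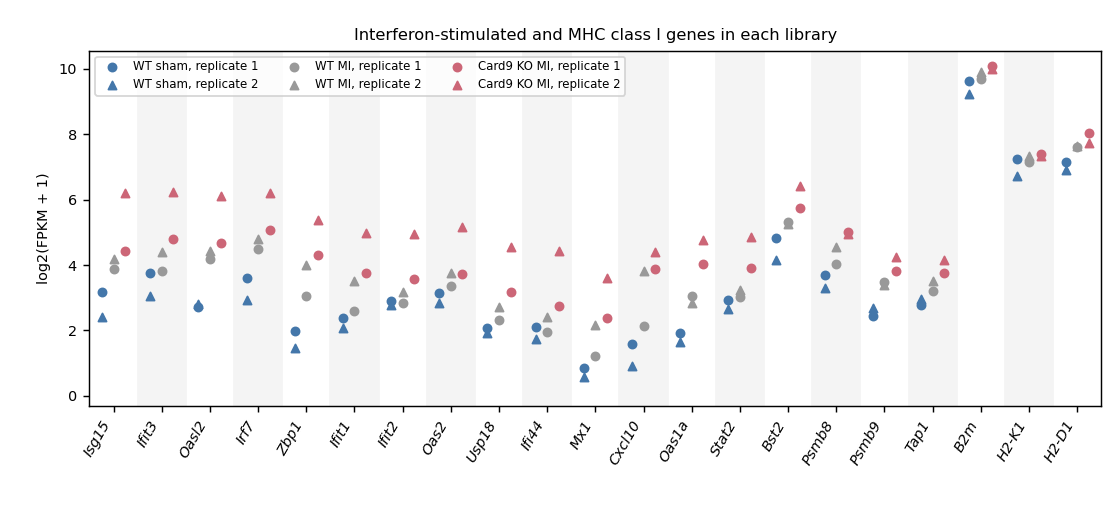
Level of 21 interferon-stimulated and MHC class I genes as log2(FPKM + 1) in each library, with circles for replicate 1 and triangles for replicate 2. KO-labelled replicate 2 lies above KO-labelled replicate 1 for Isg15, Ifit3, Oasl2 and Irf7, while the pair lie close together for B2m, H2-K1 and Psmb8.

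The interferon-stimulated response element was searched in the promoter windows of these genes (RefSeq starts on GRCm38.p6, 250 bases before to 50 after the start, both strands), as GAAA, any 2 bases and GAAA again. Of 32 list genes with a window, 15 held it (46.9%), against 3.99% of all 27025 genes with a window. The letters were also held by 31.6% of matricellular and fibronectin genes and 18.2% of lysosome and phagocyte oxidase genes, but by 0% of fatty acid oxidation genes. The windows of the 3 called genes with the largest fold change that hold the letters are shown, with the match in capitals. They are Cxcl10 at chr5:92348840-92349139 (minus strand), Oas1a at chr5:120907476-120907775 (minus strand) and Isg15 at chr4:156200769-156201068 (minus strand), whose log2 fold changes were 2.88, 2.63 and 2.52. A match is a description of the letters and not a binding site.
Cxcl10: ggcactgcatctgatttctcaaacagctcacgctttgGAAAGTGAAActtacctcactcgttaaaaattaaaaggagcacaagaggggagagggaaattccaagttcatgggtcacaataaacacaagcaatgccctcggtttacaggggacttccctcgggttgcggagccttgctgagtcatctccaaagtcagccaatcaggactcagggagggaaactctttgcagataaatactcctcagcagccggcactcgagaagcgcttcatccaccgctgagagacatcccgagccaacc
Oas1a: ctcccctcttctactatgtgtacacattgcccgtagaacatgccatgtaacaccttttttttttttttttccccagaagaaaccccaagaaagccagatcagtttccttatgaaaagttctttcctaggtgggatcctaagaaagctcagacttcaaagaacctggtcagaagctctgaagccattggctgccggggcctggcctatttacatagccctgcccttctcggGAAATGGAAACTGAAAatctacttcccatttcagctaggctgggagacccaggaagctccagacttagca
Isg15: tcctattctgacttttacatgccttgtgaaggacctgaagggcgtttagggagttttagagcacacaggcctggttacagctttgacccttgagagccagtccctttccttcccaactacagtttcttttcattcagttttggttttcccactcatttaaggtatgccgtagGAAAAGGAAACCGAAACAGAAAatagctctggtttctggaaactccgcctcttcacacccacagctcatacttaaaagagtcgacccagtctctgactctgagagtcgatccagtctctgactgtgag

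Chemokines, the attractants of leukocytes, and their receptors were mostly above sham. Of 33, 26 were called higher and 2 lower, with a median of 2.35. Ccl2, which draws monocytes through CCR2, was listed at 6.05 and 2.95 in sham and 81.8 and 78.1 in the KO-labelled libraries (3.94 ± 0.24, limma adjusted p = 2.57e-05). Ccl7 went from 2.13 and 2.96 to 46.1 and 49.7 (3.79 ± 0.19), Ccl6 from 17.3 and 14.6 to 154 and 80.5 (2.74 ± 0.26) and Ccl8 from 0.65 and 0 to 24.7 and 24.7 (4.32 ± 0.25). The neutrophil attractants Cxcl5 and Cxcl3 were listed at 0 in both sham libraries and at 7.47 and 3.52 and 2.62 and 1.03 in the KO-labelled libraries. Those called lower were Cxcl14 (17.8 and 15 to 8.94 and 4.72, -1.20 ± 0.26) and the scavenging receptor Ackr3 (66.7 and 61.6 to 23.7 and 28.4, -1.27 ± 0.12). Cxcl12, the constitutive stromal chemokine, was called higher yet at the sham level (42.4 and 53.9 to 64.6 and 65.8, interval 0.15 to 0.73). It lost that call in 7 of 17 alternatives.

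Cytokines of the IL-1, IL-6 and TNF families were low in FPKM. 22 of 33 were called higher and 1 lower (2 lower after quantile normalization). Il1b went from 0.96 and 1 to 13.6 and 9.2 (2.62 ± 0.20), and Il6 was listed at 0 in both sham libraries and at 4.34 and 6.79 in the KO-labelled libraries. Tnf was not called (0.98 and 0.2 to 0.86 and 0.75, interval -0.47 to 0.92). Il33, an alarmin of stromal cells, went from 0.99 and 1.17 to 9.96 and 8.65 (2.31 ± 0.30), Socs3, the feedback inhibitor of STAT3, from 4.94 and 3.11 to 19.4 and 19.1 (2.03 ± 0.21), and Tgfb1 from 29.4 and 27.6 to 95.6 and 78.4 (1.57 ± 0.13). The shared receptor subunit Il6st was at the sham level (47.7 and 52.7 to 57.8 and 56.1) while Osmr was higher (1.43 ± 0.13).

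Genes of the pathway that CARD9 belongs to were mostly above sham, receptors and signalling genes alike, with some signalling genes at the sham level. Of 34 genes, 24 were called higher (70.6%, against 34.8% of all genes) and none lower. At the sham level were 9 of 24 (37.5%, against 63.6% of all genes). The C-type lectin receptors Clec4n (dectin-2), Clec7a (dectin-1) and Clec4e (mincle) went from 1.96 and 0.88 to 21.3 and 15.9 (3.04 ± 0.24), from 2.91 and 1.16 to 11.5 and 5.2 (1.599 ± 0.37) and from 0 and 0.13 to 3.77 and 1.72 (1.76 ± 0.29). The signalling kinases Syk (9.85 and 8.06 to 22.9 and 20.1, 1.18 ± 0.15) and Prkcd (1.79 ± 0.11) were higher. CARD9's partners Bcl10 (6.49 and 8.83 to 14 and 14.5, 0.83 ± 0.16) and Malt1 (3.85 and 4.1 to 6.5 and 6.21, 0.56 ± 0.15) were called higher, Malt1 within 2-fold, and Malt1 lost its call without sham replicate 1, without either KO-labelled library and after quantile normalization (limma adjusted p up to 0.413). The kinase subunits Ikbkg (-0.61 to 0.04), Chuk (-0.02 to 0.84) and the upstream kinase Map3k7 (-0.26 to 0.29) were at the sham level by their intervals, though Ikbkg was called lower under each of the other scalings (down to -0.65). Of the NF-kB subunits, Rela (0.63 ± 0.11) was called higher within 2-fold, Nfkb2 (0.89 ± 0.15) was higher, and Rel was not called.

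Among acute-phase genes and metallothioneins, some were at the sham level in the KO-labelled libraries and above it in WT MI. Of 16 genes, 8 were called higher than sham and 4 lower (7 lower after quantile normalization), with a median of 0.63 beside 1.22 in WT MI. At the sham level were 4 of 9 (44.4%), a smaller share than the 63.6% of all genes. Lrg1, a leucine-rich glycoprotein, was listed at 32.5 and 37.1 in sham, 32.8 and 28.5 in the KO-labelled libraries and 121 and 103 in WT MI. Its interval against sham was -0.48 to 0.12 (called lower after upper-quartile scaling and after quantile normalization, down to -0.36), and the difference from WT MI was -1.84 ± 0.13 (limma adjusted p = 0.00253, at most 0.0281 over the alternatives). Mt1, a metal-binding metallothionein, had the same order, with 327 and 296, 266 and 287 and 606 and 617, was called lower than sham under each of the other scalings (down to -0.34), and differed from WT MI by -1.14 ± 0.09 (limma adjusted p = 0.00503, or 0.0512 without WT MI replicate 1). Serpina3n, a protease inhibitor, was above sham (7.36 and 5.83 to 32.5 and 35.7, 2.21 ± 0.14) and below WT MI (116 and 141, limma adjusted p = 0.0042, at most 0.0298 over the alternatives). Cp, ceruloplasmin, was lower than sham (39.3 and 33 to 17.1 and 17.7, -1.01 ± 0.12). Saa3, serum amyloid A3, differed widely within the KO-labelled pair, at 44.3 and 5.76, against 0 and 0.65 in sham.

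Complement genes went in both directions. C1qa, C1qb and C1qc, made by macrophages, were higher (76.3 and 56.4 to 396 and 296, 75.4 and 68.5 to 491 and 364 and 63.2 and 59.3 to 320.4 and 258), as were the receptors C5ar1 (2.65 ± 0.18) and C3ar1 (3.19 ± 0.19). C3, the central component, was lower (36 and 36.8 to 18.4 and 19.5, -0.90 ± 0.12), while WT MI stood at 42.1 and 51.7 and differed from the KO-labelled libraries (limma adjusted p = 0.0088, up to 0.0549 over the alternatives, the call being lost without WT MI replicate 2). C7 (-1.32 ± 0.30) and Cd59a (-0.80 ± 0.11) were lower, and the C1 inhibitor Serping1 was at the sham level (81.8 and 73.9 to 78.6 and 80.3). The list gave 11 higher and 4 lower of 23, and its median of 0.43 became -0.01 after quantile normalization.

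Lysosomal and phagocyte oxidase genes were nearly all higher, 30 of 32, with 1 lower and a median of 1.93. Lgmn, the cysteine protease legumain, was listed at 44.8 and 43.5 in sham and 306 and 249.8 in the KO-labelled libraries (2.62 ± 0.12), and Ctsb, cathepsin B, at 135 and 138 and 653 and 481 (2.03 ± 0.16). The oxidase subunits Cybb (4.54 and 3.37 to 24.9 and 23.4, 2.35 ± 0.16) and Ncf1 (2.48 ± 0.15) were higher. Psap and Lamp2, which most cells express, were called higher yet stayed within 2-fold (0.57 ± 0.12 and 0.69 ± 0.10), and Gaa, the acid glucosidase that degrades glycogen, was the member called lower, within 2-fold (68.6 and 68.9 to 39.8 and 39.5, -0.78 ± 0.09). The letters CACGTG, an E-box that is the core of the element bound by TFEB-family factors, were also searched. They stood in a window of 7 of 22 list genes (31.8%), against 8.09% of all genes with a window. A raised share was not particular to this list, at 27.8% in the clock list and 23.8% in the glucocorticoid and immediate early list, though 0% in the collagen list. The windows of Lgmn (chr12:102439043-102439342 (minus strand)) and Ctsl (chr13:64370471-64370770 (minus strand)) on GRCm38.p6 are shown with the E-box in capitals since they are the called genes holding the letters with the largest fold changes, 2.62 and 1.17.
Lgmn: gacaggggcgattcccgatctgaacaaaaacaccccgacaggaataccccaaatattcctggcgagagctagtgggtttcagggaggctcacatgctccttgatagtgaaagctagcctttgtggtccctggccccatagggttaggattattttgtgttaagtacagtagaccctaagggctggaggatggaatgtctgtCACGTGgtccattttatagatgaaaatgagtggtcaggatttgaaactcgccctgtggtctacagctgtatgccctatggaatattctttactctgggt
Ctsl: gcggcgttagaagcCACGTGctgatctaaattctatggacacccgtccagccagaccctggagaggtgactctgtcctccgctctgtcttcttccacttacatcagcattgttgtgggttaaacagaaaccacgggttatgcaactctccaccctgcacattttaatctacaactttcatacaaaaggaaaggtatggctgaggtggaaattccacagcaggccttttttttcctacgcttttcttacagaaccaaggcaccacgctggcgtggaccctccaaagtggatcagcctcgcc

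Proliferation genes were higher almost without exception. Of 41 mitosis genes, 40 were called higher and none lower, and none of 20 was at the sham level. The median was 2.54, which is 2.30 relative to all genes, and 2.16 after quantile normalization. Birc5, survivin of the chromosomal passenger complex, was listed at 1.32 and 0.5 in sham and 24 and 18.9 in the KO-labelled libraries (3.58 ± 0.25, limma adjusted p = 3.59e-05). Ccna2, cyclin A2, went from 1.67 and 1.39 to 30.5 and 22.9 (3.44 ± 0.18), Mki67 from 1.76 and 1.22 to 26.4 and 20.01 (3.28 ± 0.20) and Top2a, topoisomerase II alpha, from 1.5 and 0.63 to 21.7 and 16.9 (3.32 ± 0.24). Most members were listed below 2 FPKM in both sham libraries. Cenpf was the one not called (1.88 and 3.33 to 3.82 and 3.22). In WT MI the median against sham was 1.77. DNA replication genes were higher by less, 32 of 34 with a median of 1.55. Among them were Mcm6 of the replicative helicase (2.49 and 2.6 to 23.3 and 19.6, 2.66 ± 0.14), Rrm2 of ribonucleotide reductase (0.86 and 1.2 to 13.7 and 11.4, 2.74 ± 0.17) and the sliding clamp Pcna (29.9 and 24.1 to 80.9 and 68.2, 1.43 ± 0.13). Tyms, thymidylate synthase, was called higher within 2-fold of sham (16.8 and 18 to 22.9 and 21.8, interval 0.09 to 0.60). That call was lost in 11 of 17 alternatives.

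Mitotic genes are known to share a cell cycle homology region (CHR, TTTGAA) and CCAAT boxes (CCAAT) close to their starts. Both strands of the windows were searched, and a stretch such as CCAATTGG counts for both strands. Of 36 mitosis genes with a window, 26 held the CHR letters (72.2%, against 20.2% of all genes with a window) and 27 a CCAAT box (75% against 41.1%). Both were held by 23, not necessarily in the same window (63.9% against 8.97%). The CCAAT share was not particular to mitosis, at 81.8% in the endoplasmic reticulum chaperone list and 72.2% in the clock list. The CHR letters were also held by 46.4% of cell death genes. Among the replication genes, which peak earlier in the cell cycle, 3 of 29 held the CHR letters (10.3%) and 17 a CCAAT box (58.6%). The windows on GRCm38.p6 of the 3 called mitosis genes with the largest fold changes that hold both in the same window are shown, with matches in capitals. They are Ube2c at chr2:164769679-164769978 (plus strand), Top2a at chr11:99024140-99024439 (minus strand) and Cdca3 at chr6:124829926-124830225 (plus strand).
Ube2c: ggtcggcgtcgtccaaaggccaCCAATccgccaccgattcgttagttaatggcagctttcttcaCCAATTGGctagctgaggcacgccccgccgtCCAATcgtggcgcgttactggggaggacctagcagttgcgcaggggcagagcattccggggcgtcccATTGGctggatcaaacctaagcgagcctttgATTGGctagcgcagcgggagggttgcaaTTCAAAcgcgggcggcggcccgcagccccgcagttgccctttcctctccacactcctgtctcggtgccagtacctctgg
Top2a: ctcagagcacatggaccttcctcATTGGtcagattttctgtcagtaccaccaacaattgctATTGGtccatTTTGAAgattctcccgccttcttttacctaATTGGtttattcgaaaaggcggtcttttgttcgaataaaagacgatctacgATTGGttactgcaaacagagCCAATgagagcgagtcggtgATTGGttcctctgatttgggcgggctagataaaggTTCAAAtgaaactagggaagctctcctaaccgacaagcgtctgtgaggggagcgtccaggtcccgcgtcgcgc
Cdca3: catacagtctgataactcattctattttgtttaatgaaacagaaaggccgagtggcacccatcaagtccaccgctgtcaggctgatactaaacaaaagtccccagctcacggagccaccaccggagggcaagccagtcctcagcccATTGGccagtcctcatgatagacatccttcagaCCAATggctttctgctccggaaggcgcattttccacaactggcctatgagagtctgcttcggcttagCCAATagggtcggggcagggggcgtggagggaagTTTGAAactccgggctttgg

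Some genes of the circadian clock, Arntl and Dbp among them, were at the sham level in the KO-labelled libraries and away from it in WT MI. The core loop pairs CLOCK or NPAS2 with ARNTL (BMAL1), which drive PER, CRY and NR1D genes and, through DBP, TEF and HLF, the clock's output. Of 22 genes, 4 were called higher than sham (2 after upper-quartile scaling, 1 after quantile normalization) and 7 lower. At the sham level were 6 of 15 (40%), a smaller share than the 63.6% of all genes. Arntl was listed at 12.6 and 15.8 in sham, 12.7 and 11.9 in the KO-labelled libraries and 4.13 and 3.03 in WT MI. Its interval against sham was -0.59 to 0.22, and it differed from WT MI by 1.55 ± 0.17 (limma adjusted p = 0.0143, up to 0.0789 over the alternatives). Dbp stood at 7.95 and 10.8, 10.4 and 8.11 and 24.3 and 33.9, with an interval of -0.50 to 0.48 against sham and a difference of -1.54 ± 0.21 from WT MI (limma adjusted p = 0.0244, up to 0.12 over the alternatives). Both calls were lost without either WT MI library or without KO-labelled replicate 1, and that of Dbp also without KO-labelled replicate 2. Npas2, at 3.97 and 4.14, 3.14 and 4.13 and 1.17 and 1.57, followed Arntl, and Per2 and Ciart followed Dbp, with WT MI at 3.05 and 3.66 and 3.75 and 3.49 against 0.75 and 1.19 and 1.85 and 1.75. They were too low for the sham-level call, and their differences from WT MI missed the threshold (limma adjusted p = 0.0614, 0.0534 and 0.0961). Other output genes were below sham, Nr1d1 (51.3 and 64 to 29.3 and 31.3, -0.90 ± 0.12), Tef (-0.74 ± 0.15) and Hlf (-0.91 ± 0.19). Bhlhe40, which also answers other signals, was higher (0.93 ± 0.16). The hour at which hearts were taken is not given in the sources used here and was not tested.

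**Figure D4:**
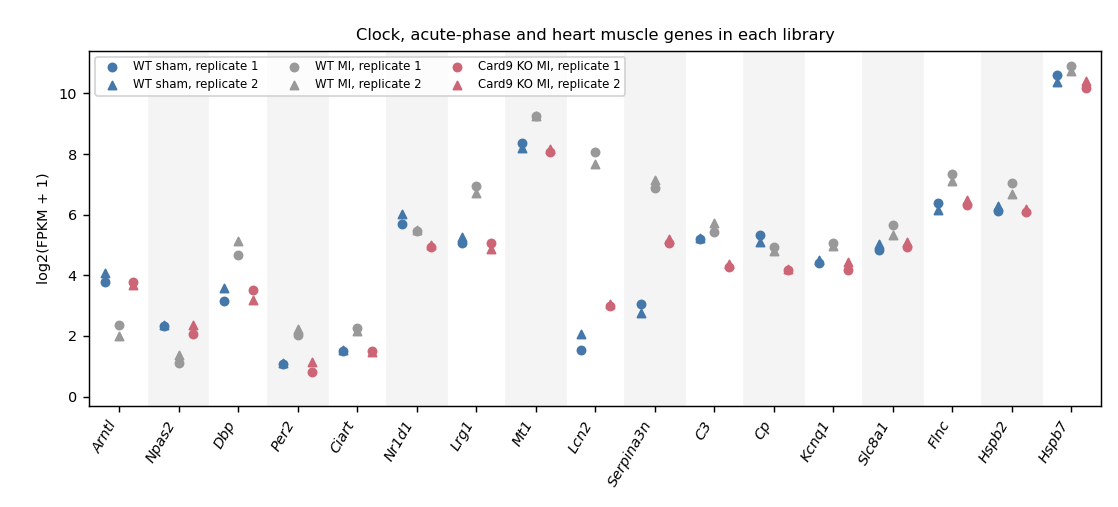
Level of 17 clock, acute-phase, complement and heart muscle genes as log2(FPKM + 1) in each library, with circles for replicate 1 and triangles for replicate 2. For Arntl, Dbp, Lrg1, Mt1 and Kcnq1 the KO-labelled libraries lie with sham and apart from WT MI, whereas C3 and Cp lie below sham.

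Genes that answer glucocorticoids or immediate stimuli were called in both directions, at shares near those of all genes. Of 28, 11 were called higher (39.3%, against 34.8% of all genes) and 3 lower (10.7%, against 14.3%), or 5 lower after quantile normalization. At the sham level were 6 of 22 (27.3%, against 63.6% of all genes). The receptor Nr3c1 (19.4 and 19.8 to 18.5 and 19.1) and its target Sgk1 (33.6 and 37.6 to 36.7 and 38.5) were at the sham level, whereas Fkbp5 was higher (5.09 and 4.97 to 12.3 and 11.9, 1.12 ± 0.16). Myc (4.74 and 3.43 to 20.8 and 17.4, 1.99 ± 0.16), Junb (1.46 ± 0.27) and Egr2 (0.63 and 0.66 to 9.41 and 7.37, 2.50 ± 0.19) were higher, while Egr1 (87.1 and 60.3 to 36.8 and 35.7, -0.98 ± 0.20) and Klf9 (34.6 and 37.4 to 17.3 and 21.5, -0.87 ± 0.13) were lower.

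Endothelial genes did not stand far from all genes in these calls. At the sham level were 20 of 27 (74.1%, against 63.6% of all genes). Of 31, 14 were called higher (45.2%, against 34.8%) and 4 lower (12.9%, against 14.3%), or 10 and 6 after quantile normalization. Tek (17.6 and 15.9 to 15.8 and 15.4), Emcn (41.4 and 50.4 to 51 and 49), Tie1 (30.9 and 30.5 to 35.1 and 33.2) and Cldn5 (17.3 and 13.6 to 20.1 and 12.9) were at the sham level and not called, except that Tek was called lower after quantile normalization (-0.36). Pecam1 and Cdh5 were called higher by 0.61 ± 0.11 and 0.57 ± 0.09 and Kdr, the VEGF receptor, lower by -0.57 ± 0.11, all within 2-fold. Adhesion and fenestration genes of activated vessels were higher, with Selp at 0.37 and 0 and 4.96 and 2.31 (1.92 ± 0.30), Vcam1 at 6.47 and 7.04 and 16.4 and 15.8 (1.14 ± 0.13) and Plvap at 9.49 and 8.28 and 49.9 and 35.1 (2.12 ± 0.18). Prox1, the lymphatic regulator that cardiomyocytes also express, was lower (17.6 and 21.1 to 7.33 and 8.15, -1.22 ± 0.14).

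Genes of vascular mural cells gave calls in both directions. Of 20, 11 were called higher and 6 lower, and 7 were called higher without sham replicate 1 and 6 after quantile normalization. Rgs5 (116 and 123 to 79.5 and 89.7, -0.50 ± 0.10, within 2-fold) and Abcc9 (76.7 and 90.6 to 31.7 and 36.8, -1.26 ± 0.13), genes of pericytes of which Abcc9 is also a cardiomyocyte channel subunit, were lower. Cnn1, calponin of smooth muscle and activated fibroblasts, went from 2.23 and 1.66 to 8.19 and 11.3 (1.86 ± 0.22), and Mcam, an adhesion molecule of mural cells, went from 22.9 and 22.1 to 90.5 and 77 (1.84 ± 0.15).

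Ligands, receptors and inhibitors of the TGF-beta, BMP and Wnt pathways were higher in 20 of 32 cases and lower in 3, and the count lower was 0 or 1 whenever any 1 library was left out. The TGF-beta ligands Tgfb2 (3.18 and 2.76 to 15.4 and 16.6, 2.10 ± 0.14) and Tgfb3 (8.12 and 6.64 to 34.5 and 31.6, 2.03 ± 0.14) and the receptors Tgfbr1 (1.39 ± 0.16) and Tgfbr2 (1.24 ± 0.13) were higher. Smad3 (-0.30 to 0.49) and Bmpr2 (-0.17 to 0.42) were at the sham level. Secreted modulators of these pathways were higher, among them the Wnt-binding Sfrp2 (2.69 and 2.8 to 23.2 and 25.6, 2.76 ± 0.15) and the follistatin-like Fstl1 (31.7 and 24.6 to 250.4 and 236, 3.08 ± 0.13).

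Of 34 growth factor genes, 22 were called higher and 5 lower, with 13 higher without KO-labelled replicate 1 and 14 without sham replicate 2 or after quantile normalization. The angiogenic ligands Vegfb (253 and 265 to 121 and 153, -0.92 ± 0.12) and, within 2-fold, Vegfa (188 and 164 to 95.7 and 122, -0.69 ± 0.13) were lower, and so was Fgf1 (-0.72 ± 0.14). Ptn, pleiotrophin, went from 0.59 and 0.25 to 18.9 and 17.4 (3.76 ± 0.33), Mdk, midkine, from 2.01 and 0.42 to 23.3 and 16.6 (3.32 ± 0.37) and Igf1 from 3.55 and 2.12 to 16 and 16.9 (2.21 ± 0.20). Pgf, placental growth factor, and Hbegf were higher by 1.56 ± 0.16 and 1.504 ± 0.21.

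Protein synthesis genes divided between cytosol and mitochondria. All 64 cytosolic ribosomal protein genes were called higher, by 0.39 to 1.87 with a median of 0.83, and 63 remained called after quantile normalization. 23 lay within 2-fold of sham by their intervals, for example Rps2 (601 and 630.4 to 921 and 845, 0.52 ± 0.09). Rpl3, whose muscle paralogue replaces it in the adult heart, changed most (89.3 and 75.8 to 325 and 284, 1.87 ± 0.12). Many of these genes have processed pseudogenes with which reads can be shared. Of 76 mitochondrial ribosomal protein genes, 41 were called lower and 1 higher, and 70 were at the sham level (92.1%). The count called lower was 24 without KO-labelled replicate 1, 25 and 26 without sham replicate 1 or 2 and 53 after quantile normalization. Mrps35 changed most among those called lower (57.2 and 61.3 to 27.7 and 33.2, -0.94 ± 0.11), and Mrpl24 was nearly level (60.9 and 58.2 to 60.2 and 60.7).

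The highest shares of genes at the sham level were in lists of basic cell machinery, though not in all of them. The cytosolic ribosomal proteins had 35.9%, under the 63.6% of all genes. 29 of 31 constitutive proteasome genes were at the sham level (93.5%), with 9 called higher (29%, under the 34.8% of all genes) and none lower. Psmb7, a catalytic subunit, stood at 129.5 and 120.2 in sham and 118 and 123 in the KO-labelled libraries, and Psmc5, an ATPase of the cap, at 57.3 and 53.8 and 54.1 and 56.7. Leaving out sham replicate 2 or KO-labelled replicate 1 left 2 or 3 called higher, and quantile normalization left 5. 24 of 27 RNA polymerase II and general transcription genes were at the sham level (88.9%), among them Polr2e (72.5 and 67.4 to 65.7 and 66.3) and Polr2g (29.5 and 24.5 to 26.3 and 26.9). Of 30 tested in that list, 9 were called higher (30%, against 34.8% of all genes) and none lower. Their 9 calls higher became 3 without sham replicate 1, 5 without sham replicate 2, 3 without KO-labelled replicate 1, and 1 higher with 4 lower after quantile normalization. The immunoproteasome subunits Psmb8 (12 and 8.74 to 30.9 and 29.8, 1.48 ± 0.20) and Psmb9 (1.46 ± 0.18) were higher, in contrast to the constitutive Psmb5 (-0.08 to 0.59) and Psmb6 (-0.02 to 0.43) that they replace. Spliceosome core genes were called higher in 23 of 30 cases but 23 were within 2-fold, with Prpf8 at 31.4 and 35.4 and 32.5 and 33.7.

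**Figure D5:**
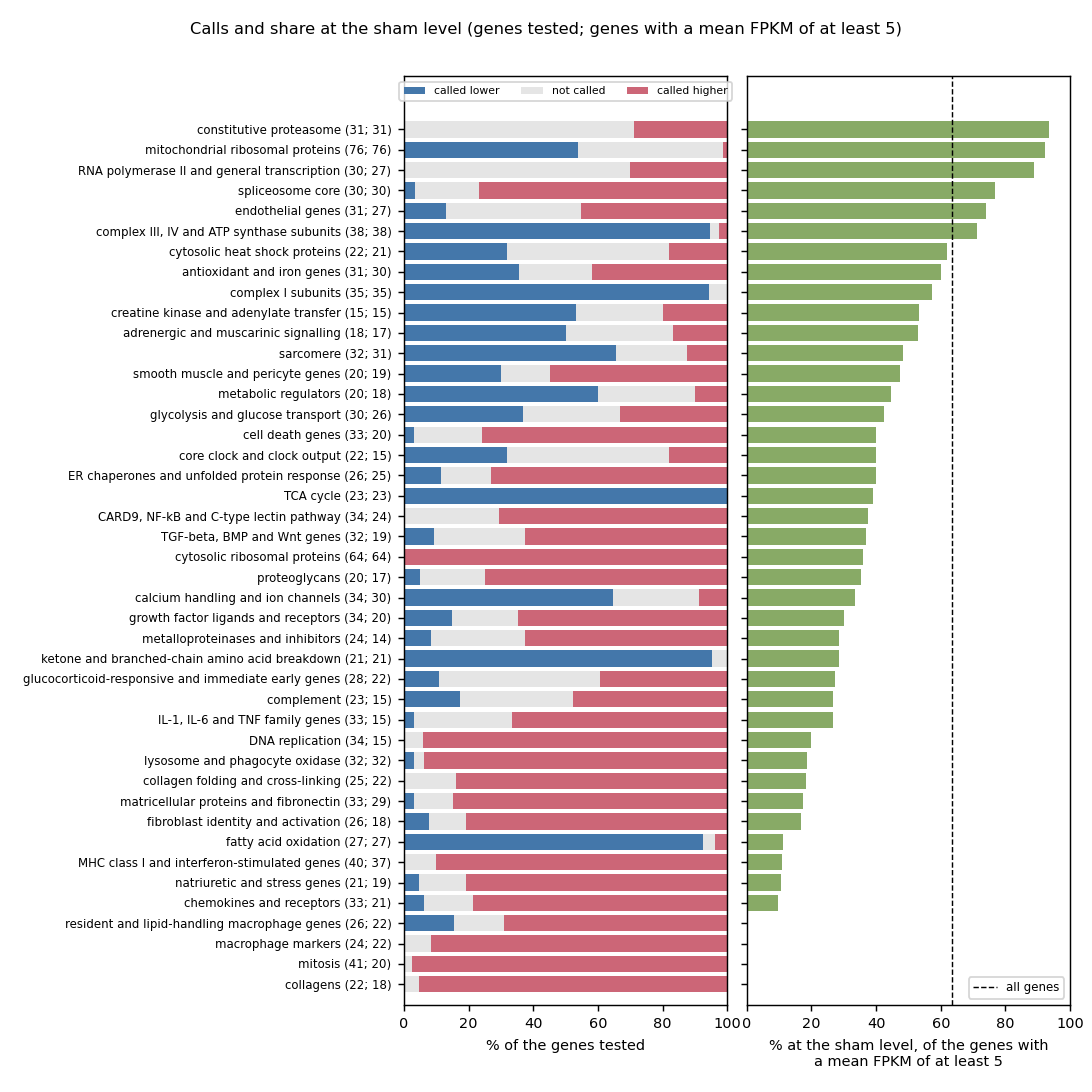
Left, the share of the tested genes of each list called lower, not called or called higher; right, the share of genes with a mean FPKM of at least 5 that were at the sham level, with a dashed line at the 63.6% of all genes (numbers in parentheses give the genes tested and the genes with that mean). Proteasome, mitochondrial ribosome and RNA polymerase II lists lie furthest above the line, and collagens, mitosis and macrophage lists have no gene at the sham level.

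Chaperones of the endoplasmic reticulum were higher in 19 of 26 cases, led by the translocon genes Sec61b (10.8 and 6.91 to 46.4 and 34.6, 2.09 ± 0.21) and Sec61a1 (11.8 and 10.2 to 52.9 and 45.4, 2.06 ± 0.12) and the disulfide isomerase Pdia4 (1.71 ± 0.15). Other genes of the unfolded protein response were not, with the transcription factor Ddit3 (17.3 and 8.84 to 13 and 12.1) at the sham level, the sensor Atf6 lower within 2-fold (-0.62 ± 0.11) and Herpud1 lower (96.3 and 90.8 to 44.9 and 50.4, -0.96 ± 0.10). Cytosolic heat shock genes gave 4 higher and 7 lower of 22. There were 2 higher without KO-labelled replicate 1 or 2 or sham replicate 2, 2 higher and 10 lower after upper-quartile scaling and 1 and 9 after quantile normalization, and 13 of 21 were at the sham level. That share at the sham level, 61.9%, was near the 63.6% of all genes. Hspa8, the constitutive HSP70, stood at 1134 and 1017 and 1039 and 1115. The muscle small heat shock genes Hspb6 (1794 and 1638 to 812 and 1038, -0.90 ± 0.13) and Hspb8 (-0.93 ± 0.12) and their partner Bag3 (-0.86 ± 0.13) were lower, whereas Hspb2 (67.9 and 76.7 to 67.7 and 72.4), Hspb7 (1567 and 1330.0 to 1166 and 1358) and Cryab (2413 and 2099.8 to 1929 and 2140.1) were at the sham level, of which Hspb7 was called lower after upper-quartile scaling (-0.37).

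Antioxidant and iron genes went in both directions, 13 higher and 11 lower of 31. Mitochondrial Sod2 (163 and 169 to 74.3 and 95.4, -0.97 ± 0.12) and Prdx3 (-0.86 ± 0.09) and the glutathione transferase Gstm1 (244 and 263 to 91.8 and 102, -1.38 ± 0.09) were lower. Gpx1 (56.7 and 52.5 to 249 and 161, 1.86 ± 0.19), the cystine importer Slc7a11 (1.70 ± 0.10) and the phagosomal iron transporter Slc11a1 (3.13 and 1.44 to 28 and 20.1, 2.96 ± 0.26) were higher. Ferritin light chain Ftl1 was listed at 382 and 286 in sham and 2590.1 and 1786 in the KO-labelled libraries (2.70 ± 0.21), while the heavy chain Fth1 was at the sham level (2224 and 2324 to 2751 and 2509, interval -0.01 to 0.43), though 0.79 and called higher after quantile normalization. Both have processed pseudogenes. The list median of 0.28 became -0.00 after quantile normalization.

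Cell death genes were higher in 25 of 33 cases and lower in 1 (3 lower after quantile normalization). The necroptosis kinase Ripk3 (1.35 and 0.7 to 11.1 and 9.57, 2.50 ± 0.24), its substrate Mlkl (1.67 ± 0.23) and the pore-former Gsdmd (1.31 ± 0.22) were higher. Bax (17.5 and 11.3 to 49.3 and 33.4, 1.46 ± 0.23) and Bak1 (1.65 ± 0.12), which open the mitochondrial membrane, were higher as well.

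Genes of tissues that a heart sample can carry with it were checked in short lists. Of 9 adipocyte genes, 0 were called higher and 3 lower (Dgat2, Thrsp and Pnpla2, of which heart muscle also expresses the lipase Pnpla2), and Adipoq stood at 1.3 and 1.08 in sham and 0.19 and 2.38 in the KO-labelled libraries. Of 9 erythroid and platelet genes, 2 were called higher, the platelet chemokine genes Pf4 (10.2 and 13.4 to 114 and 81.3, 2.93 ± 0.18) and Ppbp, of which Pf4 is also made by macrophages. The globin genes, near-identical copies, were not called, with Hbb-bs at 697 and 298 in sham and 1045 and 517 in the KO-labelled libraries. Without sham replicate 1, 5 of the list were called higher, Hbb-bs among them (1.30). Of 6 nerve and Schwann cell genes 4 were called higher and 0 lower (4 and 1 after quantile normalization). Those called higher included Uchl1 (6.38 and 4.92 to 33.4 and 29.7, 2.30 ± 0.15) and Ncam1 (1.98 ± 0.27). Of 4 mesothelial genes 1 was called higher, Krt18 (0.91 and 0.24 to 9.87 and 9.41, 2.79 ± 0.26), while Wt1 stood at 4.27 and 2.86 and 3.73 and 3.73. Of 5 genes of atrium, skeletal muscle and liver, 2 were called higher, Tnnt3 (0.94 and 0 to 9.26 and 7.92, 2.78 ± 0.30) and Tnni2 (1.61 ± 0.26), and Tnnt1, slow troponin T, was lower (16.6 and 18 to 5.59 and 8.21, -1.23 ± 0.19).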

How the data were processed

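Total RNA was taken with Trizol, and poly(A) mRNA libraries were sequenced on an Illumina HiSeq. Filtered reads were mapped to mm9, and the submitters' processing notes name BWA and Bowtie2. The annotation and the use of strand are not given in the sources used here. The authors deposited FPKM values per gene number and library to 2 decimals, listing only genes above 0. Gene numbers were joined with symbols (17390 of 17441) and mm9 positions (16609) from reference tables. Estimated fragments came out whole for 71.6% to 75.7% of low values (tolerance 0.15 fragments), so counts were not rebuilt.

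Genes that reached an FPKM of 1 in 2 or more of the 6 libraries were tested on log2(FPKM + 1), a scale that understates changes of low genes. The 6 libraries in 3 groups entered a single limma 3.58.1 fit (R 4.3.3, eBayes with trend), with Benjamini-Hochberg adjustment over all genes and a threshold of 0.05. The study's own method, NOIseq, gives no p-value and was not used. A screen like it, with a fold of group means and the noise between libraries, served as an alternative, and so did other pseudocounts, filters, scalings, fits, a replicate block and leaving out each library. Scripts (Python 3.11.15, pandas 2.3.3) were tested on simulated data.

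Of 1509 entries in 52 gene lists, 1483 were listed in a library, and entries under the filter were not tested. The members and lists were chosen with earlier results of these data known. Named genes were Card9 and Lcn2, the 10 largest changes each way among called genes with a mean of at least 5 FPKM in the higher group and no overlap, and from each list members by role, abundance, size of change or closeness to sham, the last chosen with values in view. Letters were searched in RefSeq promoter windows, and no coordinates were converted between builds. The windows printed as sequence were picked with those of a single chromosome left out. Some genes are not reported here.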

Additional observations from a re-analysis of the deposited data

How the results depend on the processing

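As deposited, 4569 genes were called higher, 1875 lower and 5543 at the sham level. Quantile normalization gave 2836 higher and 3447 lower, and a further demand of a 2-fold change gave 2128 and 416. The screen by fold and noise between libraries gave 1338 and 314 of 17027 genes. An interval within 1.5-fold kept 2510 at the sham level. Leaving out 1 library gave 3205 to 4299 higher, 1291 to 1758 lower and 4751 to 5430 at the sham level, lowest for calls without KO-labelled replicate 1. The other alternatives stayed within 1.5 times the counts. With the replicate number as a block there were 4419 higher, 1822 lower and 5511 at the sham level. No pairing by replicate number was seen across all genes, as deviations of same-numbered libraries correlated by 0.00244, -0.00828 and 0.0204 over 13120 genes. With 2 libraries a group, these correlations cannot show whether same-numbered libraries share an effect on few genes.

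Genes whose sign turned with a call under either setting were Acta1 (-0.29 with all libraries, 0.73 without WT sham replicate 1 and -1.31 without WT sham replicate 2) and, after quantile normalization, Actc1 (0.492), Gapdh (0.583), Tnnt2 (0.0873) and Tpm1 (0.420). The cause was not tested. Of 5459 values of named genes over 17 alternatives, 5344 kept their call or lack of one, 80 lost a call, 30 gained one and 5 turned sign with a call. A gene that was never called could turn sign and still count as kept, as Ddit3 did (-0.43 to 0.46). Of the 220 differences from WT MI recomputed for 14 genes, 32 lost a call and 3 gained one. With 2 libraries a group, library totals not given and values to 2 decimals, low genes are the least certain.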
